A study of Mus musculus with 30 samples.

Results

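Carboxylesterases are hydrolases that cut ester and amide bonds. Most of the mouse enzymes are held in the lumen of the endoplasmic reticulum, and liver is one of their main sites. They activate or clear many drugs, and several of them also act on triglycerides and other neutral lipids, which links them to lipid storage and to the loading of very low density lipoprotein in hepatocytes. The mouse genes arose by repeated duplication, so that neighbouring genes are close in sequence.

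The genes followed here are Ces1d, Ces1e, Ces1f, Ces1g, Ces2a, Ces2c, Ces2e and Ces3a, 8 genes of a table in which 18193 genes have a probe set of a single symbol. They were found through the gene symbols of the platform annotation, which gave 9 of the 45101 probe sets. Of the 8 genes, 6 have a probe set of their own symbol alone. No probe set carries the symbol Ces2c in the annotation used, and Ces2c was not analysed here. One probe set is annotated to both Ces3a and Ces3b, and its level cannot be assigned to either gene. Ces1d has 3 probe sets, and the one with the highest mean level over all 30 arrays was used (10.31 on the log2 scale, against 10.2 and 8.8 for the other probe sets). The list was drawn up with earlier results of these data known, in which Ces1e, Ces1f and Ces1g already stood among the large rises of liver. Counts over the list are therefore a description.

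Liver and lung of fetuses were taken on gestation day 18 from litters of CD-1 mice, an outbred stock. Dams had been given 0, 5 or 10 mg/kg/day of perfluorooctane sulfonate (PFOS), a persistent fluorinated surfactant, as the potassium salt. All dams, the 0 mg/kg/day group included, were gavaged daily from day 1 to day 17, and the vehicle was 0.5% Tween 20. Each array holds RNA pooled from 3 fetuses of a litter, and each tissue and dose has 5 litters. The lower dose below is 5 mg/kg/day and the higher dose 10 mg/kg/day. The labels give the fetuses no sex, and they do not state whether liver and lung of 1 replicate number came from the same litter. Levels are the deposited log2 probe set values, and a log2 change is the exposed mean minus the unexposed mean of the same tissue, with n = 5 litters in each group. A probe set's level is not set against that of another probe set, since probes bind with different strength.

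Both tissues carried their defining transcripts. The mean log2 level of 8 hepatocyte markers was 13.15 to 13.25 over the 15 liver arrays and 8.22 to 10.34 over the 15 lung arrays, while 8 lung epithelial markers stood at 4.83 to 5.42 in liver and 10.9 to 11.32 in lung. Among the marker lists, none of the 8 hepatocyte genes tested in liver was called at the lower dose and 2 fell at the higher dose. Of 5 erythroid genes 2 fell at 5 and none at the higher dose. At the higher dose 3 of 5 fibroblast genes and 1 of 5 macrophage genes fell, and none of either list did at the lower dose. No lung epithelial (5 tested), cardiac muscle (3 tested) or endothelial (5 tested) marker was called in liver, and no marker of any list was called in lung. Of all genes tested in liver, 1.81% fell at the lower and 5.22% at the higher dose. In lung, 0.0155% and 0.0543% of all genes were called in either direction, so the lack of marker calls there is near that share. In pooled tissue, fewer cells of a type and less RNA per cell cannot be told apart. The part of these shifts in the carboxylesterase results was not tested.

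In fetal liver, the listed genes of the CES1 subfamily rose at both doses, those of the CES2 subfamily had smaller changes, and the probe set shared by Ces3a and Ces3b fell at the higher dose. Of the 6 genes with their own probe set, 5 rose at the lower dose and 6 at the higher dose, and none fell (limma, Benjamini-Hochberg adjusted p under 0.05 over 13269 genes). Over all genes tested in liver, the share that rose was 4.26% at the lower and 5.3% at the higher dose, and the share that fell was 1.81% and 5.22%. The median log2 change of the 6 genes was 1.64 and 1.92 at the lower and the higher dose, against -0.01 and -0.02 over all genes tested. For 5 of the 6 genes at each dose, every exposed litter lay above every unexposed one, as it did for 4.84% and 4.63% of all genes. The exception at both doses was Ces2a.

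**Figure D1:**
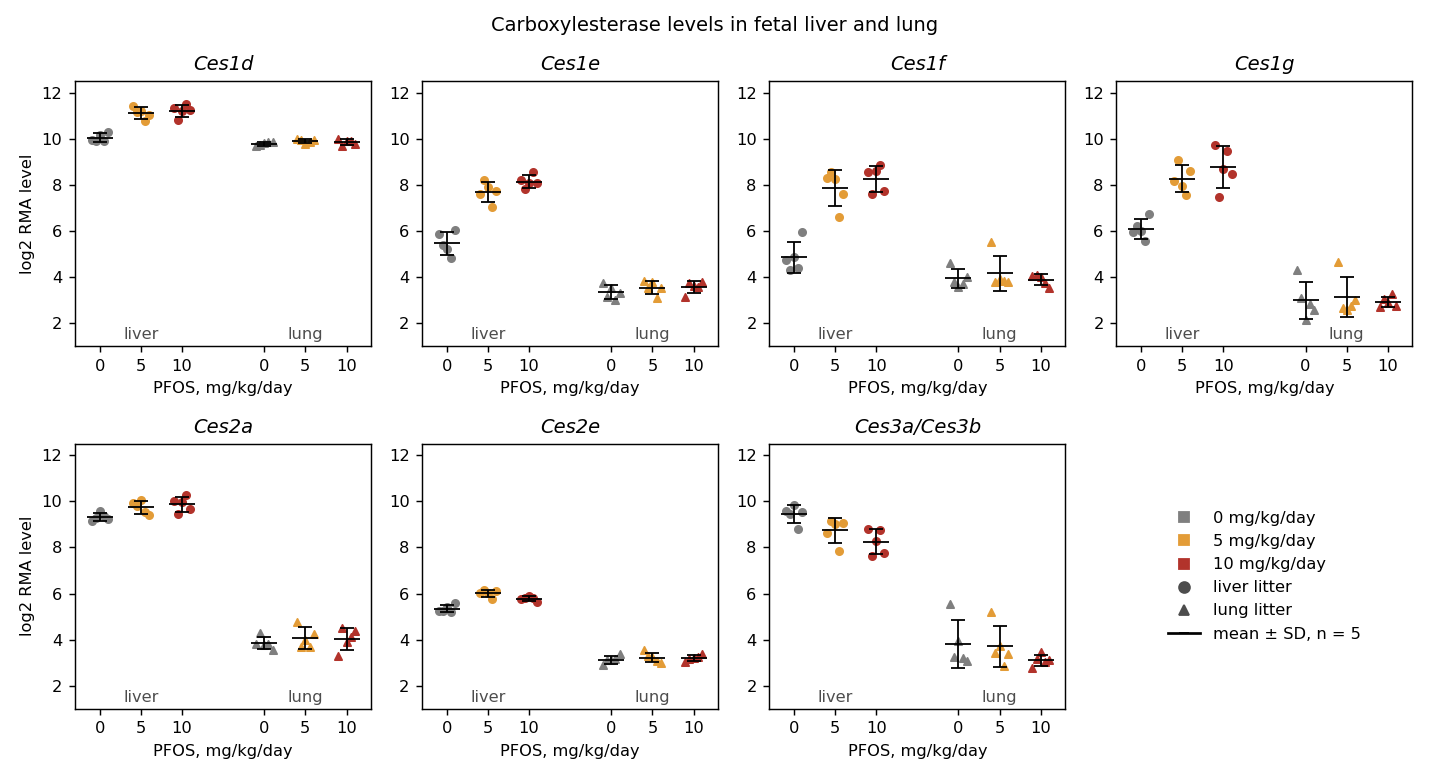
Log2 RMA level (vertical axis) of 7 carboxylesterase probe sets in fetal liver (circles) and fetal lung (triangles) at 0, 5 and 10 mg/kg/day PFOS (horizontal axis); each point is 1 litter and the bars are mean ± SD, n = 5. In liver the Ces1e, Ces1f and Ces1g litters separate fully from the unexposed ones at both doses, the Ces3a/Ces3b litters lie lower at 10 mg/kg/day, and in lung Ces1d stays between 9.66 and 10.0.

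Ces1f, a lipid hydrolase of the hepatocyte endoplasmic reticulum, had the largest change of the 6 genes. In liver its log2 level was 4.72, 4.31, 4.87, 4.4 and 5.96 in the 5 unexposed litters, 8.31, 8.55, 8.23, 6.59 and 7.62 at the lower dose, and 8.54, 7.59, 8.58, 8.86 and 7.74 at the higher dose. The highest unexposed litter, litter 5, stayed below the lowest exposed one, litter 4 of the lower-dose group. The log2 change was 3.01 at the lower dose (SE 0.37, limma adjusted p = 0.000107) and 3.41 at the higher dose (SE 0.37, limma adjusted p = 1.67e-05), or 8.06-fold and 10.7-fold. The name of this probe set ends in _s_at, the array maker's mark for probes that can match transcripts of several genes, so a share from a neighbouring Ces1 gene is uncertain.

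Ces1e, known as egasyn in the mouse, holds beta-glucuronidase in the endoplasmic reticulum. Its log2 level in liver was 5.85, 5.38, 5.2, 4.83 and 6.03 in unexposed litters, 7.62, 8.21, 7.9, 7.05 and 7.74 at the lower dose, and 8.19, 7.81, 8.08, 8.57 and 8.07 at the higher dose. All 10 exposed litters lay above all 5 unexposed ones. The log2 change was 2.25 (SE 0.23, limma adjusted p = 1.34e-05) at the lower dose and 2.68 (SE 0.23, adjusted p = 1.07e-06) at the higher dose. Gusb, the beta-glucuronidase that egasyn binds, had log2 changes of -0.07 and -0.12 at these doses and was not called. Nor was any of the 4 tested genes of the list that holds Gusb and the KDEL receptors, which return resident proteins to the endoplasmic reticulum.

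Ces1g, whose loss in mice raises liver and blood lipids, varied more among exposed litters than Ces1e did. Its log2 level was 5.96, 6.19, 5.98, 5.55 and 6.73 in unexposed litters, 8.17, 9.07, 7.95, 7.57 and 8.59 at the lower dose, and 9.74, 7.48, 8.7, 9.47 and 8.48 at the higher dose. The SD over litters was 0.43, 0.58 and 0.89 at 0, 5 and 10 mg/kg/day, and no exposed litter reached down to the unexposed ones. Ces1g rose by 2.19 at the lower dose (SE 0.37, limma adjusted p = 0.0016) and by 2.69 at the higher (SE 0.37, adjusted p = 0.000139) on the log2 scale, or 4.55-fold and 6.46-fold.

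The proximal promoters of Ces1e and Ces1g are shown because both genes rose; Ces1f lies between them. Each runs from 250 bases before to 50 after the start that the RefSeq promoter set uses for the gene. Both lie on the minus strand of mouse chromosome 8 (RefSeq, GRCm38.p6), Ces1e at chr8:93229570-93229869 and Ces1g at chr8:93337160-93337459. For Ces1e that start lies a few bases inside the gene's outer end in the reference table, chr8:93229631. Capitals mark their longest shared run.
Ces1e: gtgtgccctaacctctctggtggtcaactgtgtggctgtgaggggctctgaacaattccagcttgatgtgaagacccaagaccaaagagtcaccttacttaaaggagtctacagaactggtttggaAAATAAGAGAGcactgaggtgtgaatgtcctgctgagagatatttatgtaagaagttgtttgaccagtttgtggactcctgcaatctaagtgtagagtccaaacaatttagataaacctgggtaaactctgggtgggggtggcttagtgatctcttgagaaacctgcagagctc
Ces1g: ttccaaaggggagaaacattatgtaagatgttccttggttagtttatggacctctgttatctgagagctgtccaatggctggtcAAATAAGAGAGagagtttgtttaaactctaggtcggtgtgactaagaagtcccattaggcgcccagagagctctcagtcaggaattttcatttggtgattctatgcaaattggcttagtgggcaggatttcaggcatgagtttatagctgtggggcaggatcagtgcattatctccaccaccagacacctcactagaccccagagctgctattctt
The shared run is 11 bases long and lies at -124 to -114 in Ces1e and at -166 to -156 in Ces1g, counted from the start. On either strand it is in 11 of 32851 RefSeq promoters of the same length (0.0335%), these included. The run was picked as the longest of this pair, so its rarity is a description. Aligned over the whole 300 bases the promoters are 47.0% identical, against 44.8% for Ces1e and 51.5% for Ces1g with Ces1c, whose transcript fell. With Ces1c the longest shared run is 9 bases for Ces1e and 10 for Ces1g. The letters AGGTCA, the half-site of many nuclear receptors, are in neither window on either strand, and 16.3% of all promoters hold them.

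Ces1d, a triacylglycerol hydrolase that in mouse liver feeds stored lipid into very low density lipoprotein, was bright in liver without exposure and rose by a smaller log2 change. Its log2 level was 9.93, 9.91, 10.17, 9.88 and 10.31 in unexposed liver, 11.43, 11.16, 11.21, 10.75 and 11.02 at the lower dose, and 11.33, 10.8, 11.19, 11.5 and 11.24 at the higher dose. The exposed and unexposed litters did not overlap. Ces1d rose by 1.08 at the lower dose (SE 0.14, limma adjusted p = 0.000115) and by 1.17 at the higher (SE 0.14, adjusted p = 2.65e-05) on the log2 scale, or 2.11-fold and 2.26-fold. The other 2 Ces1d probe sets gave log2 changes of 1.05 and 0.9 at the lower dose and 1.08 and 1.0 at the higher dose, and all were called in the fit with 1 row per probe set. The array maker marks these probe sets _a_at and _x_at, the last for probes that may bind unrelated transcripts.

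Of the CES2 subfamily, Ces2e, a hydrolase of gut and liver, rose at both doses. Its log2 level was 5.23, 5.26, 5.42, 5.21 and 5.59 in unexposed liver, 6.04, 6.17, 6.03, 5.76 and 6.11 at the lower dose, and 5.75, 5.8, 5.89, 5.82 and 5.62 at the higher dose. The groups did not overlap with the unexposed one, and all 5 litters at the higher dose lay below the mean at the lower dose. The log2 change was 0.68 (SE 0.09, limma adjusted p = 0.000146) at the lower dose and 0.43 (SE 0.09, adjusted p = 0.00412) at the higher dose. The difference between the doses, -0.25, was not called (adjusted p = 0.555).

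Ces2a, which in the mouse hydrolyses drugs and neutral lipids, was called at the higher dose alone. Its log2 level was 9.15, 9.29, 9.6, 9.37 and 9.25 in unexposed liver, 9.92, 9.78, 10.05, 9.55 and 9.4 at the lower dose, and 10.01, 9.44, 9.97, 10.27 and 9.68 at the higher dose. Every exposed litter lay above the unexposed mean of 9.33, but 1 unexposed litter, at 9.6, lay above the lowest exposed ones. The log2 change was 0.41 (SE 0.15, limma adjusted p = 0.126) at the lower dose and 0.54 (SE 0.15, adjusted p = 0.0297) at the higher dose. The call at the higher dose was lost in 7 of the 10 fits that left out 1 litter, with adjusted p from 0.0517 to 0.0726, for a change of 0.44 to 0.65 over all 10. A single fit of both tissues lost it too (adjusted p = 0.0861), as did leaving out unexposed litters 2, 3 and 5, which stood apart in another transcript given below (change of 0.61, adjusted p = 0.141, a setting chosen after seeing the data).

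The proximal promoters of Ces2a and Ces2e are shown because they share the longest run of bases among the pairs compared. They lie on the plus strand at chr8:104733753-104734052 and chr8:104926010-104926309 (RefSeq, GRCm38.p6), and capitals mark the run.
Ces2a: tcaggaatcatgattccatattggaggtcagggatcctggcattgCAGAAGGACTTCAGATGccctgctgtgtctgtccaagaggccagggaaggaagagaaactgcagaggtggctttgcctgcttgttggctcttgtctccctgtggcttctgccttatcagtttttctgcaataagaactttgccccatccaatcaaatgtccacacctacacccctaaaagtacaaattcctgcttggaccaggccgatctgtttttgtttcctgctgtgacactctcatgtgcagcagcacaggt
Ces2e: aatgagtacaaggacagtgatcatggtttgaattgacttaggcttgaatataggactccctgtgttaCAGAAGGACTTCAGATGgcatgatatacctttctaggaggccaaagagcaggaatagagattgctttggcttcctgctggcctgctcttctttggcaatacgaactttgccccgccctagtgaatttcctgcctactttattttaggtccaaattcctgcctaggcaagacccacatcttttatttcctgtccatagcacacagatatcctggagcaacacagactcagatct
The run is 17 bases long, at -205 to -189 in Ces2a and at -183 to -167 in Ces2e, and these are the only 2 of 32851 promoters that hold it on either strand. It too was picked as the longest of the pair, so its rarity is a description. With Ces2c the longest shared run is 11 bases for Ces2a and 9 for Ces2e. The promoters of Ces2a and Ces2e are 54.9% identical, less than those of Ces2a and Ces2c. Searched on both strands, AGGTCA occurs once in the Ces2a window and not in that of Ces2e. Of 16 family promoters, those of Ces2a, Ces2h and Ces4a hold it. A match or its absence is a description of these letters in this window.

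The probe set shared by Ces3a and Ces3b, both liver esterases of the mouse, went the other way. Its log2 level was 9.6, 9.43, 9.86, 8.8 and 9.53 in unexposed liver, 8.64, 9.14, 9.01, 7.85 and 9.06 at the lower dose, and 8.78, 7.62, 8.29, 8.76 and 7.76 at the higher dose. At the higher dose the highest litter, at 8.78, lay just below the lowest unexposed one, at 8.8, while at the lower dose the ranges overlapped. In the fit with 1 row per probe set, the log2 change was -0.70 (SE 0.27, limma adjusted p = 0.183) at the lower dose and -1.20 (SE 0.27, adjusted p = 0.0121) at the higher dose. It kept its call in all 10 fits without 1 litter, with changes of -1.36 to -1.05. Unexposed litters 2, 3 and 5 stood apart in Cym, a stomach protease gene, at log2 levels of 11.27, 9.5 and 8.2 against 5.05 and 5.28 in litters 1 and 4. Without these 3 litters, a setting chosen after seeing the data, the change was -0.96 and the call was lost (adjusted p = 0.254). That setting leaves litters 1 and 4 as the only unexposed ones, for this probe set and for every other gene given with it. Fewer litters lower the power of a fit, so a lost call there does not show that the 3 litters made the change.

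**Figure D2:**
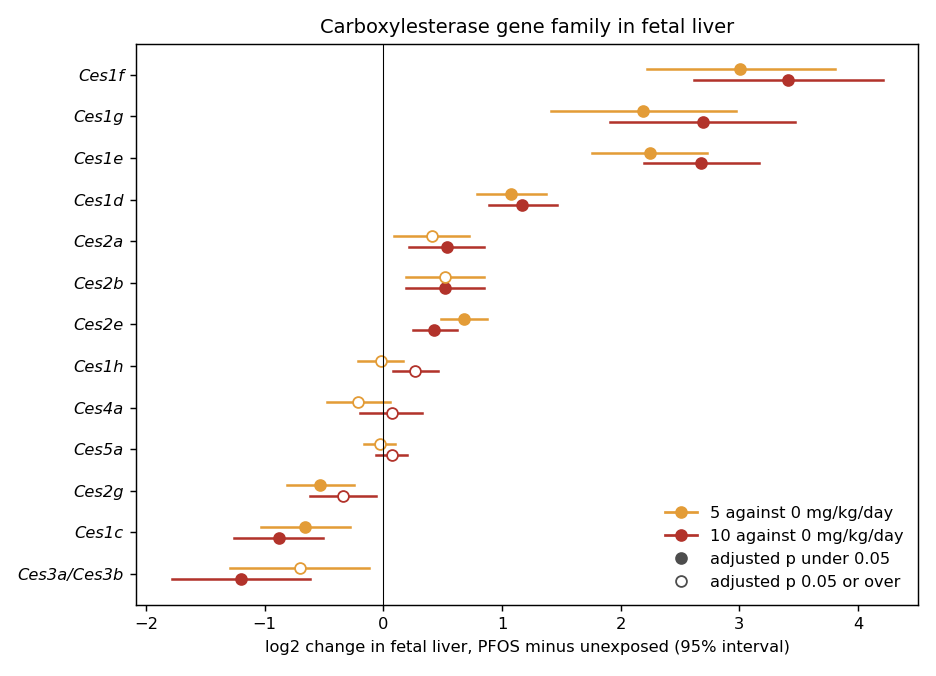
Log2 change in fetal liver with its 95% interval (horizontal axis) for the 12 carboxylesterase genes tested and the probe set shared by Ces3a and Ces3b (vertical axis), at 5 (orange) and 10 mg/kg/day (red) against 0, n = 5 litters each; filled points have an adjusted p under 0.05. Ces1f leads with 3.01 and 3.41, and Ces1c and Ces3a/Ces3b lie lowest at -0.88 and -1.20 at the higher dose.

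The other carboxylesterase genes of the array moved in both directions. Of 7 such genes, 6 were tested in liver, and Ces2f was too dim. At the lower dose none rose and 2 fell, and at the higher dose 1 rose and 1 fell, with median log2 changes of -0.12 and 0.07. The rise was that of Ces2b, which has a limit given below. Ces1c, which encodes the esterase that mice secrete into plasma, had a log2 level of 8.76, 9.09, 9.18, 8.8 and 9.32 in unexposed liver, 8.06, 8.48, 8.89, 8.16 and 8.27 at the lower dose, and 8.18, 7.66, 8.58, 8.36 and 7.96 at the higher dose. All 5 litters at the higher dose lay below all unexposed litters, and 1 litter at the lower dose did not. Ces1c fell by 0.66 (limma adjusted p = 0.0366) and by 0.88 (adjusted p = 0.00385) on the log2 scale. The call at the lower dose was lost in 7 of 10 fits without 1 litter (adjusted p from 0.0563 to 0.0948), and both calls were lost without unexposed litters 2, 3 and 5 (changes of -0.41 and -0.63, adjusted p = 0.476 and 0.18). A single fit of both tissues also lost both at the same changes as reported (adjusted p = 0.429 and 0.211). That fit shares 1 estimate of the spread between the tissues. The SD of Ces1c at 0, 5 and 10 mg/kg/day was 1.37, 1.03 and 0.16 in lung and 0.24, 0.33 and 0.36 in liver.

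Ces2g fell by 0.53 at the lower dose (limma adjusted p = 0.0245), and its log2 change at the higher dose was -0.34 (adjusted p = 0.124). The call at the lower dose was lost in 4 of 10 fits without 1 litter and without unexposed litters 2, 3 and 5, where the change was -0.60 (adjusted p = 0.132). Ces2b had a log2 change of 0.52 at both doses, called at the higher dose (adjusted p = 0.044) and not at the lower dose (adjusted p = 0.062). Its log2 levels were dim, at 3.7 to 4.99 over the liver arrays. Unexposed litters stood at 4.32, 3.96, 3.7, 3.93 and 3.75, around or under the filter level of 4.16 to 4.23. Ces2b thus passed the filter only with the help of exposed litters, and its call is no support for a rise. The call was lost in 8 of 10 fits without 1 litter and without the filter on dim probe sets (adjusted p = 0.0587). Without unexposed litters 2, 3 and 5 its change at the higher dose was 0.33 (adjusted p = 0.48). Ces1h, Ces4a and Ces5a were not called at either dose, with log2 changes from -0.21 to 0.27.

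In their order on chromosome 8, the genes that rose most stand side by side. The reference table places all 20 family genes there, 9 of them in a cluster of Ces1 genes and Ces5a at chr8:93020214-93535879 and 11 in a cluster of Ces2, Ces3 and Ces4a genes at chr8:104734003-105150109 (GRCm38.p6). Ces1d, Ces1e, Ces1f and Ces1g are consecutive genes of the first cluster. Ces1c on one side of them fell, and Ces1h on the other had log2 changes of -0.02 and 0.27 and was not called. In the second cluster Ces2a, Ces2b and Ces2e had log2 changes of 0.41 to 0.68, while Ces2g and the probe set of Ces3a and Ces3b had negative ones. The order of the genes was not tested, since the genes were listed with rises among them known.

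**Figure D3:**
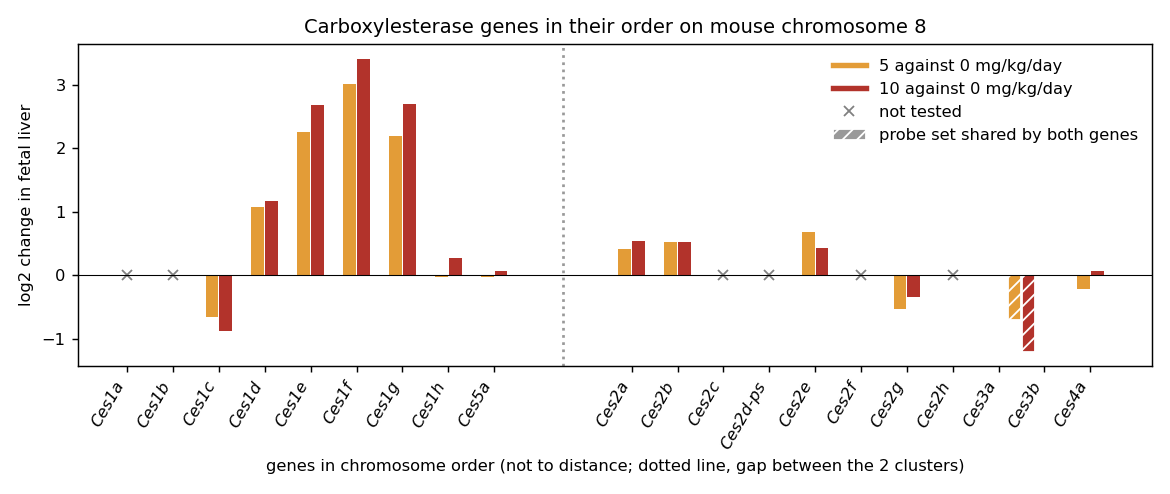
Log2 change in fetal liver (vertical axis) at 5 (orange) and 10 mg/kg/day (red) against 0 for carboxylesterase genes in their order on mouse chromosome 8 (horizontal axis, not to distance); crosses mark genes that were not tested and hatched bars the probe set shared by Ces3a and Ces3b. The consecutive genes Ces1d, Ces1e, Ces1f and Ces1g have bars from 1.08 to 3.41, between Ces1c below 0 and Ces1h near 0.

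None of the 6 genes was called at the higher against the lower dose (limma, adjusted p under 0.05, 0.00754% of all genes called in either direction, and 1035 of 13269 genes at an unadjusted p under 0.05). The log2 differences were 0.44 for Ces1e (95% interval -0.04 to 0.92), 0.50 for Ces1g (-0.27 to 1.28), 0.40 for Ces1f (-0.39 to 1.20) and 0.10 for Ces1d (-0.19 to 0.38). For Ces2a the difference was 0.13 (-0.18 to 0.45). These intervals hold 0 as well as further rises, so the values do not show that the doses act alike. The interval of Ces2e lay below 0, at -0.25 (-0.43 to -0.06), without adjustment for the number of genes. The comparisons of 5 and of 10 with 0 mg/kg/day share their unexposed litters.

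Litters of 1 dose differed among themselves in a shared way. After the mean of each dose was taken away, the deviations of the 15 liver litters correlated with r = 0.85 between Ces1d and Ces1f, 0.79 between Ces1e and Ces1f and 0.82 between Ces1f and Ces2e. Litter 4 of the lower-dose group was the lowest of its group in Ces1d, Ces1e, Ces1f, Ces1g, Ces2e and Ces3a/Ces3b. The probe set of Ces3a and Ces3b, which fell at the higher dose, deviated in the same direction as Ces1g (r = 0.80), which rose. Litter 2 of the higher-dose group was the lowest of its group in both, at log2 levels of 7.62 for Ces3a/Ces3b and 7.48 for Ces1g, and also in Ces1d, Ces1e, Ces1f and Ces2a. Ces2a went with Ces1d (r = 0.71) and less with Ces2e (r = 0.22), and Ces2b had negative r with each of the others, down to -0.60 with Ces2e. These values describe 15 arrays whose genes share the same RNA and array. The deviations in the hepatocyte marker mean gave r from -0.46 (Ces1e) to 0.18 (Ces2e) with the members, over a marker mean that itself spanned 13.15 to 13.25.

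**Figure D4:**
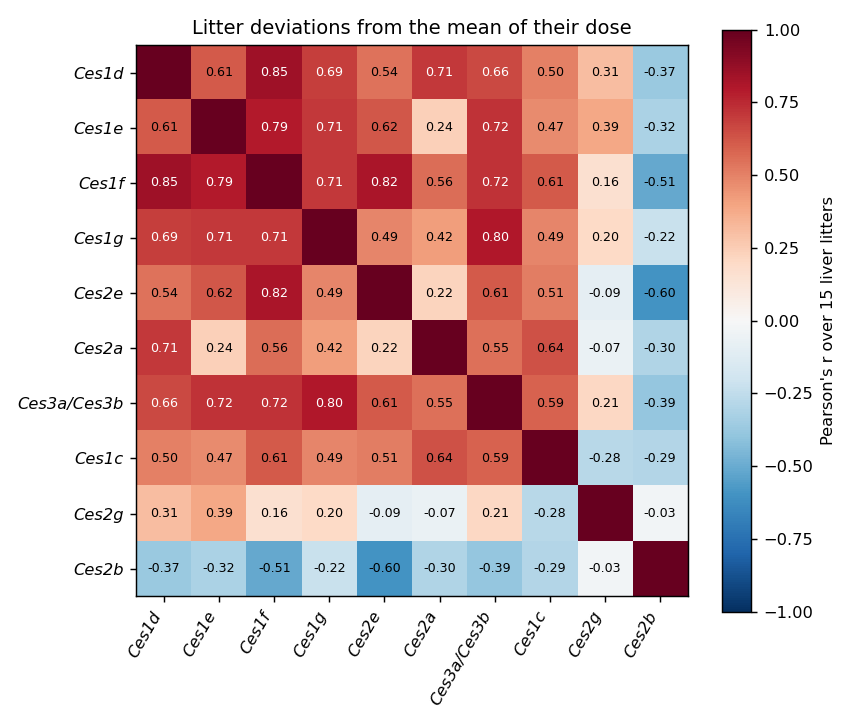
Pearson's r (colour and number) between carboxylesterase genes over 15 fetal liver litters, each litter's log2 level taken as its deviation from the mean of its dose. The block of Ces1d, Ces1e, Ces1f and Ces1g holds r from 0.61 to 0.85, Ces3a/Ces3b joins it with 0.66 to 0.80, and Ces2b is negative against each of the other genes.

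The genes most like each member over the 15 liver arrays were chosen by Pearson's r over 13257 genes, a measure that the dose groups dominate. For Ces1f they were Acaa1b (r = 0.979), Abcd3 (0.977) and Aldh3a2 (0.976), and for Ces1e they were Acaa1b (0.982), Aldh3a2 (0.979) and Acadl (0.976). For Ces1d they were Ephx2 (0.986), Acsl5 (0.979) and Abcd3 (0.978). Ces1g had other partners, Entpd5 (0.968), Hsd17b11 (0.965) and Rab9 (0.960). Those of Ces2e were Psmc4 (0.920), Glyat (0.915) and Tmem64 (0.911), and those of Ces2a were Lclat1 (0.917), Pnpla8 (0.896) and Enpp4 (0.893).

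No carboxylesterase was called in fetal lung, and of the 6 listed genes Ces1d and Ces2a passed the filter there. The log2 level of Ces1d in lung was 9.66, 9.72, 9.83, 9.84 and 9.84 in unexposed litters, 9.97, 9.93, 9.75, 9.86 and 9.93 at the lower dose, and 10.0, 9.7, 9.9, 9.91 and 9.78 at the higher dose, so that the groups overlapped. The log2 change was 0.11 (95% interval -0.03 to 0.25, limma adjusted p = 0.998) and 0.08 (-0.06 to 0.22, adjusted p = 0.856). Ces2a, at log2 levels of 3.29 to 4.78 in lung, had changes of 0.22 and 0.18 and was not called. Its unexposed lung mean was 3.85, and only unexposed litter 2, at 4.27, lay above the filter level of 4.16 to 4.23. Ces2a thus passed the filter in lung mainly through exposed litters, and a change could hardly be read at these levels. Ces1e, Ces1f, Ces1g and Ces2e lay too low in lung for the filter and were not tested there. No member was called, against 0.0155% of 12897 genes at the lower dose and 0.0543% at the higher dose, and 596 and 891 of all genes had an unadjusted p under 0.05.

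Unexposed liver and lung had close levels of Ces1d, with a log2 difference of 0.26 (liver minus lung). In unexposed lung the mean log2 levels of Ces1e, Ces1f, Ces1g, Ces2a, Ces2e and Ces3a/Ces3b were 2.98 to 3.94, under the level of the filter on dim probe sets (4.16 to 4.23), so that no size is given to their differences. For Ces1f the lowest unexposed liver litter, at 4.31, lay below the highest unexposed lung litter, at 4.61. These are levels of the same probe set in 2 tissues and are given with no test.

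Some lung libraries stood apart in liver transcripts. Litter 1 of the unexposed group and litter 1 of the lower-dose group had Ces1c at 7.59 and 6.95, against 4.29 to 5.06 in the other litters of these groups. They were also the highest of their groups in Ces1f (4.61 and 5.53), Ces1g (4.3 and 4.65) and Ces3a/Ces3b (5.56 and 5.19). The same litters had the highest lung levels of Alb, albumin, at 13.11 and 13.17 against 11.22 to 12.52 in the other 13 lung litters, and of Apoa1, at 10.38 and 10.72. Afp, alpha-fetoprotein, another transcript of fetal hepatocytes, went the other way, and these litters were the lowest of their groups in it, at 8.29 and 9.63. The other litters of these groups had Afp at 9.91 to 11.2 and at 10.9 to 11.51. The mean over all 8 hepatocyte markers was 9.92 and 10.34 in them, but 9.96 in litter 4 of the unexposed group. The part of liver RNA in these lung levels was not tested. Ces1e was also highest of its group in them, at 3.72 and 3.84, close to the next litters at 3.53 and 3.76. Ces1d and Ces2e were lowest of their group in litter 1 of the unexposed group (9.66 and 2.92) and highest in litter 1 of the lower-dose group (9.97 and 3.53).

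**Figure D5:**
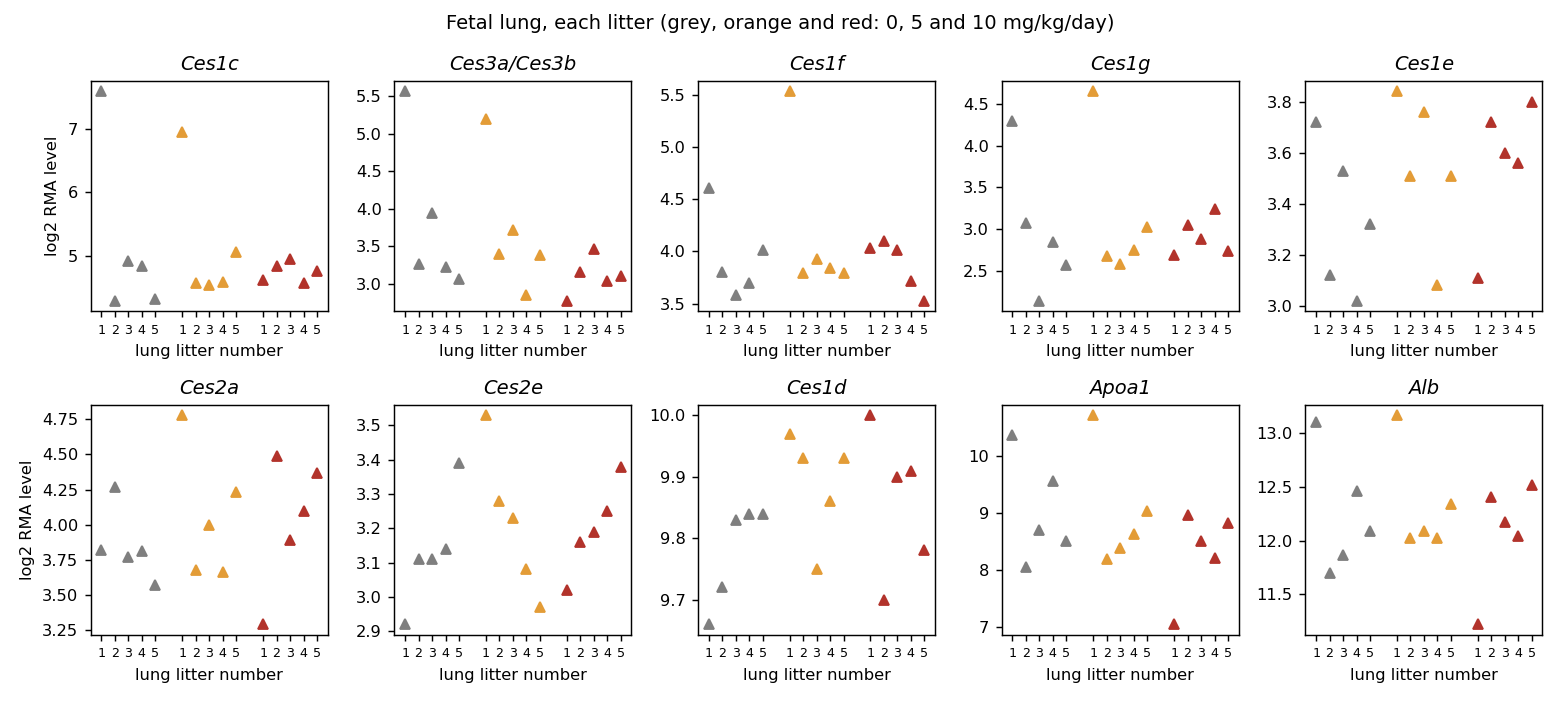
Log2 RMA level (vertical axes, scaled per gene) in each fetal lung litter (horizontal axis, litters 1 to 5 within each dose; grey 0, orange 5, red 10 mg/kg/day) for 8 carboxylesterase probe sets and the hepatocyte transcripts Apoa1 and Alb. Litter 1 at 0 and litter 1 at 5 mg/kg/day stand highest in Ces1c, Ces3a/Ces3b, Ces1f, Ces1g, Apoa1 and Alb, while Ces1d keeps within 9.66 to 10.0.

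The change of Ces1d was larger in liver than in lung, by 0.97 at the lower dose (adjusted p = 0.000338) and by 1.09 at the higher dose (adjusted p = 3.51e-05) on the log2 scale, in the test of the difference of the changes (limma over all 30 arrays and 13856 genes, 1.57% and 2.22% of all genes called in this direction). Of the 6 genes it alone was bright in both tissues. Ces1e, Ces1f, Ces1g and Ces2e entered this fit through liver, where they are high, and a lung change could hardly be read at their lung levels, so their differences largely restate the liver rise and are given as values only. They were 2.05, 2.78, 2.04 and 0.60 at the lower dose for Ces1e, Ces1f, Ces1g and Ces2e. At the higher dose Ces1e had 2.47, Ces1f 3.48, Ces1g 2.76 and Ces2e 0.37, a smaller value than at the lower dose for Ces2e. Without lung litter 1 of the unexposed and lower-dose groups, a setting chosen after seeing the data, the difference for Ces1c at the higher dose was -1.04 (adjusted p = 0.0136), against -0.44 (adjusted p = 0.811) with all arrays. Ces2a, dim in lung, was not called at either dose (0.19 and 0.36), nor was Ces3a/Ces3b (-0.61 and -0.50). Ces3a/Ces3b was dim in lung too, and its lung means include the same litters 1, at 5.56 and 5.19. Its difference was not fitted without them, so the lack of a call does not show like changes in the tissues.

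Of 19 listed hydrolase genes outside the family tested in liver, 4 rose at each dose, and 1 fell at the lower and 2 at the higher dose. The list covers ester and neutral lipid hydrolysis but also holds Ephx1 and Ephx2, which cut epoxides and not esters. Both are among the 4 that rose. Over all genes tested, 4.26% and 5.3% rose and 1.81% and 5.22% fell, and these shares also stand beside the counts of the lists that follow. The median log2 changes were 0.10 and 0.14. Those that rose included Abhd6, a monoacylglycerol lipase (1.59 and 1.99), Ephx1 and Ephx2, the microsomal and the soluble epoxide hydrolase (1.23 and 1.48, and 1.21 and 1.28), and Nceh1, a neutral cholesterol ester hydrolase (0.84 and 1.11). None of 17 was called in lung.

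Of 15 genes of triglyceride storage and lipoprotein assembly tested in liver, 7 rose at each dose and 1 fell, at the higher one. The median log2 changes were 0.20 and 0.22. G0s2, an inhibitor of adipose triglyceride lipase, rose by 1.53 and 1.64. Plin2, a lipid droplet coat protein, rose by 0.91 and 1.18. Mttp, which loads lipid onto apolipoprotein B, rose by 0.97 and 1.07, and Sar1b, a coat protein of vesicles leaving the endoplasmic reticulum, by 0.78 and 0.88. None of 13 was called in lung.

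Of 12 nuclear receptors and factors known to act on carboxylesterase or liver lipid genes, the transcript of 1 rose in liver at each dose and none fell, a count near the share over all genes. It was Nr1i2, the pregnane X receptor, with log2 changes of 0.67 and 0.83. Of 16 enzymes of drug oxidation and conjugation, 2 rose at the lower dose and 4 at the higher one, while 1 and 3 fell. Cyp3a11 rose by 1.06 and 1.17 on the log2 scale, and at the higher dose Cyp2c29 rose by 2.45 and Cyp2b10 by 0.72, all cytochromes of drug oxidation. Ugt2b1, a glucuronosyltransferase, fell by 0.73 at the higher dose. At the lower dose the smaller calls were Mgst1, a microsomal glutathione transferase, at 0.17 and the sulfotransferase Sult1a1 at -0.36. No gene of the receptor list (11 tested), of the drug enzymes (11 tested) or of the Gusb list (4 tested) was called in lung.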

How the data were processed

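The deposited values are log2 probe set levels made by the authors with RMA, per the submitters' processing notes. RMA corrects background, normalizes between arrays and summarises each probe set; its version is not given in the sources used here, nor is which arrays it took together. RMA compresses changes of dim probe sets. Of 45101 probe sets, 34945 have 1 symbol, 932 several and 9160 none, and 64 are array controls. A gene is its single-symbol probe set with the highest mean over 30 arrays, tested in a tissue where it exceeded the 40th percentile of all probe sets (4.16 to 4.23) on at least 5 of 15 arrays. The fits used limma (version 3.58.1, R 4.3.3) per tissue, a mean for every dose, and Benjamini-Hochberg adjustment of two-sided p-values, with calls under 0.05. Differences between tissues came from 1 fit of all arrays. Probe sets with several symbols were read from a fit with 1 row per probe set. The number of arrays limits the precision.

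The members and all lists, the marker lists of hepatocyte, lung epithelium, erythroid, cardiac muscle, fibroblast, endothelium and macrophage included, were chosen with earlier results of these data known. Named from a list were the 4 called genes that changed most, or failing any the 2 with the smallest p. Members, other family genes and the 3 most like genes were named throughout; single markers were named after their values were seen. The fit was tested on simulated data. Promoters are RefSeq's, on GRCm38.p6, and 5 of the 8 listed genes matched one. The alternatives were other filters, normalizations, probe set rules, variance models, array weights, samples in the fit, a replicate block, a covariate for the sex of the pools, and leaving out litters.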

Additional observations from a re-analysis of the deposited data

Results flagged for a closer look

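In lung, single litters stood far from the other 4 of their group. Litter 1 at 5 mg/kg/day had Ces1f at a log2 level of 5.53 with the next litter at 3.93, Ces1g at 4.65 with the next at 3.02, and Ces1c at 6.95 with the next at 5.06. Litter 1 of the unexposed group had Ces1c at 7.59 with the next at 4.92, and its litter 4 had Ces4a at 3.96 with the next at 4.27. Over all carboxylesterase probe sets, 114 groups of 5 litters were checked and 5 had such a litter. Chance alone marks about 1 in 20 groups, so the number of such litters is near that share.

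The log2 change in liver minus that in lung was called in limma over all 30 arrays for the genes below. Ces1d was bright in both tissues, while Ces1e, Ces1f, Ces1g and Ces2e lay under the filter in lung, so that their differences largely restate the liver rise. At 5 mg/kg/day the difference was 0.97 for Ces1d (limma adjusted p = 0.000338) and, as values only, 2.05 for Ces1e, 2.78 for Ces1f and 0.60 for Ces2e. At 10 mg/kg/day it was 1.09 for Ces1d (limma adjusted p = 3.51e-05) and, as values only, 2.47 for Ces1e, 3.48 for Ces1f and 2.76 for Ces1g.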

How the results depend on the processing

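No called change of a carboxylesterase reversed under any alternative run, and the counts of members called stayed within 1.5 times of the reported ones. Leaving out 1 litter gave 5 members that rose in liver at the lower dose, 5 to 6 at the higher, and 4 to 5 and 4 with a larger change in liver than in lung. In the counts between tissues all but Ces1d entered through liver, so these counts largely restate the liver rise. Over single genes, 1304 values stayed called or stayed uncalled as in the main fit, 39 lost a call and 21 gained one. The 1304 include values that were never called. For Ces1g at 5 mg/kg/day the difference between tissues was 2.04 and was not called. It was 1.71 to 2.42 leaving out 1 litter, and 2.09 without lung litter 1 of both groups, chosen after seeing the data. Some of these and other settings called it. Ces1g entered this fit through liver, so such calls are no test of a difference from lung. Numbers shared between doses did not pair the litters (r from -0.306 to 0.274 within a tissue). With the replicate number as a block, 5 members rose at the lower and 6 at the higher dose, and Ces2b lost its call (adjusted p = 0.0591). Between tissues, same-numbered arrays had r from 0.001 to 0.354. At 0, 5 and 10 mg/kg/day, 5, 3 and 5 of 5 correlated best with their own number, a hint from the data and not from the labels. With dose and number as a random block, Ces2g passed at 5 mg/kg/day (-0.77, limma adjusted p = 0.0358). Ces1g was called there too, at the same 2.04 and with the limit given above. Over all liver genes, leaving out unexposed litters 2, 3 and 5 left 252 that rose and 43 that fell at the lower dose, against 565 and 240, and 364 and 176 at the higher, against 703 and 692. Leaving out 1 litter gave 451 to 541 liver genes that rose and 148 to 217 that fell at the lower dose, and 546 to 677 and 455 to 661 at the higher. With every probe set as a row, 894 and 1124 of 27901 probe sets rose in liver at these doses, against 565 and 703 of 13269 genes. Of 29891 probe sets, 343 and 509 had a larger change in liver than in lung, against 218 and 307 of 13856 genes. The totals differ, so these counts are not more calls by share. One fit of both tissues gave 3 rises and 3 falls between the doses in liver, against 0 and 1, and in lung 4 rises at the lower dose, against 2, and 10 rises and 3 falls at the higher, against 5 and 2. Leaving out 1 lung litter gave 3 to 8 rises and 0 to 3 falls at the higher dose. Quantile normalization left 4 rises and no fall in lung at the higher dose. Ces1e, Ces1f, Ces1g and Ces2e lay under the filter in lung, which limits what could be read there and in their differences between tissues.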
